A study of Homo sapiens with 6 samples.

Results

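Genes of the endoplasmic reticulum (ER) unfolded protein response were followed in LoVo cells after knockdown of SRSF11. The 36 genes were taken by name, with no threshold on a measured value, but the list was chosen with earlier results of these data known. They comprise ER chaperones, folding enzymes, components of ER-associated degradation (ERAD) and sensors of the unfolded protein response. They are 36 of the 58735 genes in the count table, and 35 of them had enough reads to be among the 15801 genes tested. LoVo is an established human colorectal cancer line. Cells received a control siRNA (si-NC, 3 libraries) or an siRNA against SRSF11 (si-SRSF11, 3 libraries), and both groups were transfected cells with no untransfected sample beside them. The libraries were made from poly(A) RNA and read in pairs of 150 bases, and their totals lay between 14369525 and 16685719 counts. The data come from 1 cell line and 1 knockdown condition, and the siRNA used among those synthesized is not named in the sources used here. The study describes its RNA samples as independent and as pairs, but the sources used here do not say whether they came from separate cultures, so a p-value measures the spread between these libraries, which may be technical.

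The ER is where secreted and membrane proteins are folded, glycosylated and cross-linked by disulphide bonds. When unfolded chains accumulate, the sensors IRE1 (encoded by ERN1), PERK and ATF6 start the unfolded protein response. IRE1 removes an intron from XBP1 mRNA so that an active transcription factor is made, ATF6 is cut in the Golgi to release another, and PERK slows translation. ATF6 and XBP1 then raise the transcription of chaperones, folding enzymes and ERAD components. In intestinal epithelium this system is known for its part in secretory cells, which fold large amounts of mucin and antimicrobial protein.

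The targeted gene was read first. SRSF11, a serine/arginine-rich splicing factor, stood at 87.6, 84.3 and 87.5 CPM (counts per 1000000 of the library, with the library size scaled by TMM) in si-NC replicates 1, 2 and 3, and at 50.5, 48.6 and 49.5 CPM in si-SRSF11 replicates 1, 2 and 3. This left 57.2% of the si-NC level (log2 fold change -0.81, standard error 0.054, adjusted p = 6.1e-10). Here and below, adjusted p-values of single genes are those of the quasi-likelihood test in edgeR, over all tested genes. Of 12 colorectal epithelial marker genes, 11 had at least 10 counts in each library, and their summed level was 6140 to 6530 CPM in si-NC and 6200 to 6630 CPM in si-SRSF11. KRT8 gave the most counts to this sum, and within the list CDX2 (log2 fold change 0.40, adjusted p = 0.000385) and CDX1 (0.31, adjusted p = 0.00118) were higher and ELF3 (-0.30, adjusted p = 0.00585) was lower. Their part in the results was not tested. KRT20 (6 to 20 counts a library) and CEACAM5 (10 to 20 counts) were near the floor. Summed markers of fibroblasts (11.0 to 13.2 CPM, DCN, LUM and PDGFRA at 0) and endothelium (0.797 to 2.57 CPM, KDR at 0) were low in both groups. COL1A1, with 179 to 206 counts a library, gave nearly all of the fibroblast sum and did not pass. Of leukocyte markers, PTPRC was at 0 in each library, while CD14 had 39 to 67 counts and ITGAM 2 to 14 counts a library, and neither of these passed. The groups were separated along the first principal component (40.7% of the variance), and no library stood with the other group. Mitochondrially encoded genes took 7.00 to 7.25% of counts in si-NC and 8.29 to 8.51% in si-SRSF11, and the part of this shift in the results was not tested. In bulk RNA, fewer cells of a kind and less RNA per cell cannot be told apart.

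After knockdown of SRSF11, 13 chaperone and folding enzyme genes rose, and 5 genes with roles in sensing, folding and ERAD fell, a number near the background for lower calls. Of the 35 tested members, 13 (37.1%) were higher after the knockdown and 5 (14.3%) lower at an adjusted p under 0.05, where 13.2% of all tested genes were called higher and 11.4% were called lower. The 13 higher genes were PDIA4, HSP90B1, CALR, CRELD2, P4HB, PDIA3, MANF, PDIA6, ERO1A, CANX, SDF2L1, HSPA5 and DNAJC10. The 5 lower genes were DNAJB9, ERN1, EDEM1, CREB3L2 and HERPUD1. The groups did not overlap, with si-SRSF11 higher, in 14 of the 35 (40.0%), against 20.0% of all tested genes. In the other direction this held for 8 of the 35 (22.9%), against 18.9% of all tested genes. The share called higher lay well above the background and the share called lower lay near it. The members were chosen with earlier results of these data known, so these shares are a description. Among 30 other folding enzymes and cochaperones, 4 were higher (13.3%) and 1 was lower (3.33%). Among all 156 other pathway genes tested, 35 were higher (22.4%) and 19 were lower (12.2%). Each tested member had at least 214 counts in each library. The background also holds genes kept with as few as 10 counts in 3 libraries, where a change is harder to call. The part of this unlike depth in the shares was not tested. The changes were small. The largest rise was a log2 fold change of 0.54 and the largest fall was -0.58, and by edgeR 0 members passed an absolute log2 fold change over 1. The median over the 35 genes was 0.05, against 0.00 over all tested genes, and it was 0.01 with scaling by library size, 0.02 without si-SRSF11 replicate 1 and 0.07 without si-NC replicate 1. The split depended somewhat on scaling. With scaling by library size alone, 11 members were higher and 7 lower, so the higher share of the calls went from 72.2% to 61.1%, and over all tested genes it went from 53.6% to 40.9%.

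**Figure D1:**
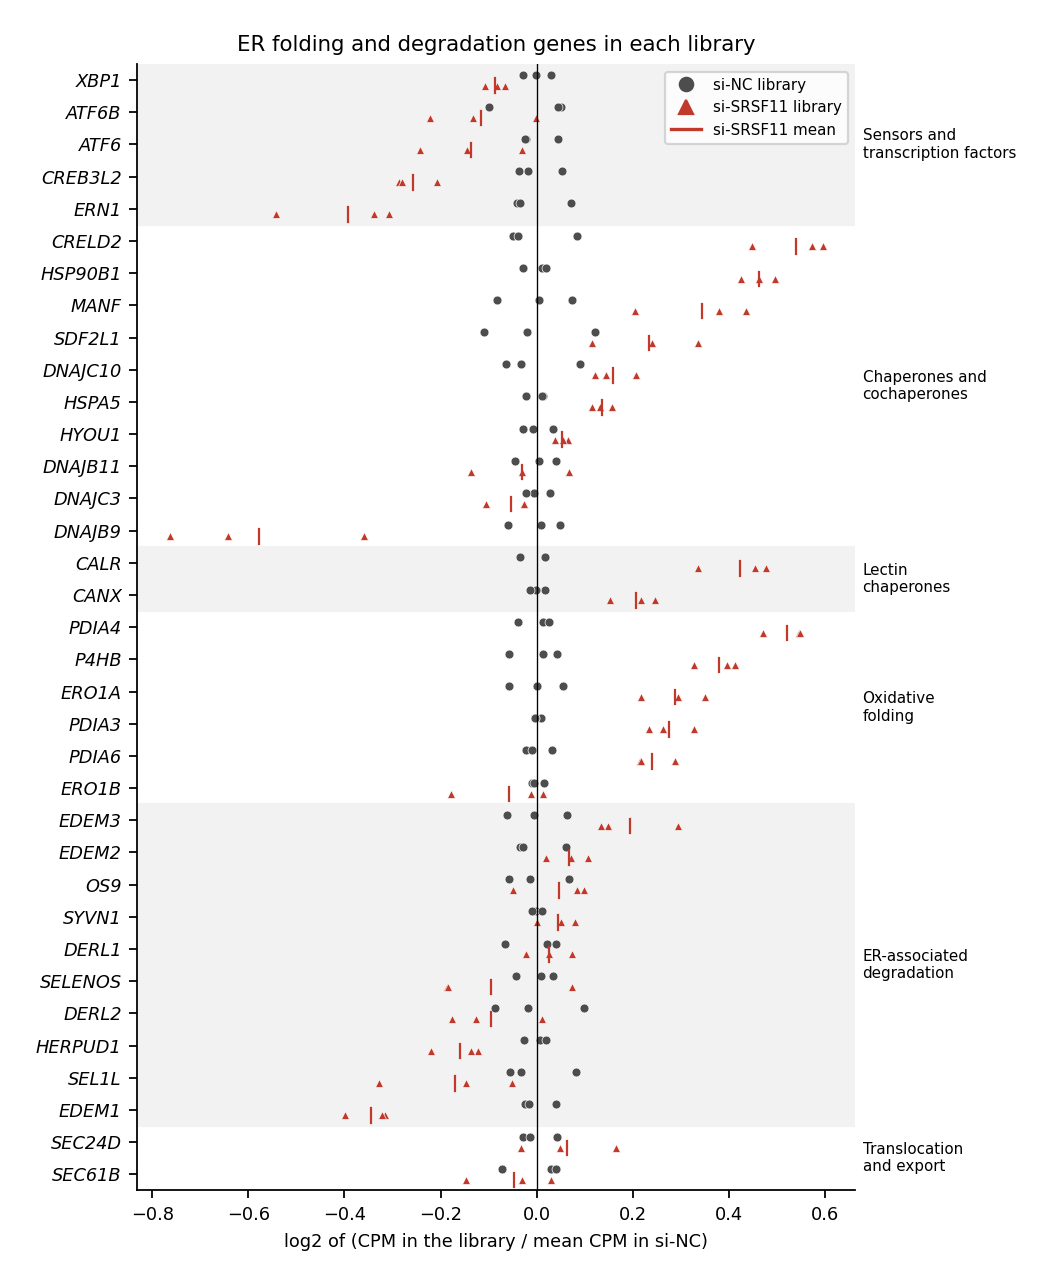
Level of each of the 35 tested members in each library, as the log2 of its CPM over the mean CPM in si-NC, grouped by role; circles are si-NC libraries, triangles si-SRSF11 libraries and red ticks the si-SRSF11 means. The si-SRSF11 libraries lie to the right for the lectin chaperones and most folding enzymes, and to the left for ERN1, CREB3L2, DNAJB9, EDEM1 and HERPUD1.

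The promoters of several members carry known ER stress elements, and these sequences are shown because they set the higher genes beside the others. The ER stress response element (ERSE) is CCAAT, then 9 bases of any kind, then CCACG. As background, NF-Y binds its first block and ATF6 its last, and the element was first described in promoters of chaperone genes that are members here, so its presence in them is not independent of the choice of genes. ERSE was searched on both strands in windows from 250 bases before to 50 bases after each RefSeq transcription start, of GRCh38.p14. Promoter windows were found for 32 of the 36 members, and not for PDIA3, DERL1, DERL3 and SEC24D. ERSE occurred in 8 of the 32 members (25.0%), against 27 of all 35116 windows (0.0769%) and 25 of all 27305 genes with a window (0.0916%). Of the 12 members called higher that have a window, 6 held it (HSPA5, HSP90B1, CRELD2, CALR, CANX and PDIA6), against 0 of the 5 called lower. The other 2, XBP1 and ERO1B, were among the 15 members with a window that did not pass. Counts this small, 0 of 5 among them, do not set the lower genes apart from the 25.0% of all members. Each match is printed 5′ to 3′ on the strand of the gene with up to 15 bases on either side, and capitals mark the 2 blocks, which read CGTGG and ATTGG where the element lies on the opposite strand.
HSPA5 (chr9:125241376-125241424, minus strand): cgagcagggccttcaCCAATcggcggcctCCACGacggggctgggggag
HSP90B1, distal (chr12:103930201-103930249, plus strand): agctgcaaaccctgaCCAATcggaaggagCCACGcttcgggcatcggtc
HSP90B1, proximal (chr12:103930306-103930354, plus strand): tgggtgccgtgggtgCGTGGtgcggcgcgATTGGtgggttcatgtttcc
CALR (chr19:12938369-12938417, plus strand): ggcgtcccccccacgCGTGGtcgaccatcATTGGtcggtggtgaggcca
CANX (chr5:179698763-179698811, plus strand): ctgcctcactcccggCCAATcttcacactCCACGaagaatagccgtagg
CRELD2 (chr22:49918539-49918587, plus strand): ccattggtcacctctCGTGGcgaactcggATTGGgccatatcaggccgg
PDIA6 (chr2:10812838-10812886, minus strand): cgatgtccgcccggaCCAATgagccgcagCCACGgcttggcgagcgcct
XBP1 (chr22:28800588-28800636, minus strand): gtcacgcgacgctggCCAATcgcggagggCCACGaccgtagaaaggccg
ERO1B (chr1:236282168-236282208, minus strand): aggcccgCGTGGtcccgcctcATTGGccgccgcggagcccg

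A shorter form, ERSE-II, is ATTGG, then 1 base of any kind, then CCACG. It was found in 3 of the 32 members (9.38%), against 0.0541% of all windows and 0.0696% of all genes with a window. These are HERPUD1, which was lower, SDF2L1, which was higher, and HYOU1, which did not pass and holds it at 2 places. The carriers of ERSE-II did not move one way. Among the carriers of ERSE, 6 were called higher, while XBP1 (log2 fold change -0.09) and ERO1B (-0.06) were negative and did not pass. The ATTGG of ERSE-II is the CCAAT block of ERSE read on the other strand, and capitals mark the whole element.
HERPUD1 (chr16:56932010-56932050, plus strand): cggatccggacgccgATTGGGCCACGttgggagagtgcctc
SDF2L1 (chr22:21642099-21642139, plus strand): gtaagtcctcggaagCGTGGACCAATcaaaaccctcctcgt
HYOU1, distal (chr11:119057365-119057405, minus strand): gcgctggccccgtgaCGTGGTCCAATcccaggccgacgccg
HYOU1, proximal (chr11:119057259-119057299, minus strand): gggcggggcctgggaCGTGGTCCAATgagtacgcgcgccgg
The unfolded protein response element TGACGTGG, which can share its last 5 bases with the other elements, was found in DNAJC10 and in the distal HYOU1 site. These are 6.25% of the members with a window, against 0.729% of all windows and 0.927% of all genes with a window. The single block CCACG is common, at 38.1% of all windows, 42.1% of all genes with a window and 71.9% of the members. None of ERSE, ERSE-II and TGACGTGG was found in the windows of PDIA4, P4HB, MANF and ERO1A, which were higher, or of DNAJB9, EDEM1, ERN1 and CREB3L2, which were lower. A match is a description of these letters in these windows, and factor binding was not measured.

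**Figure D2:**
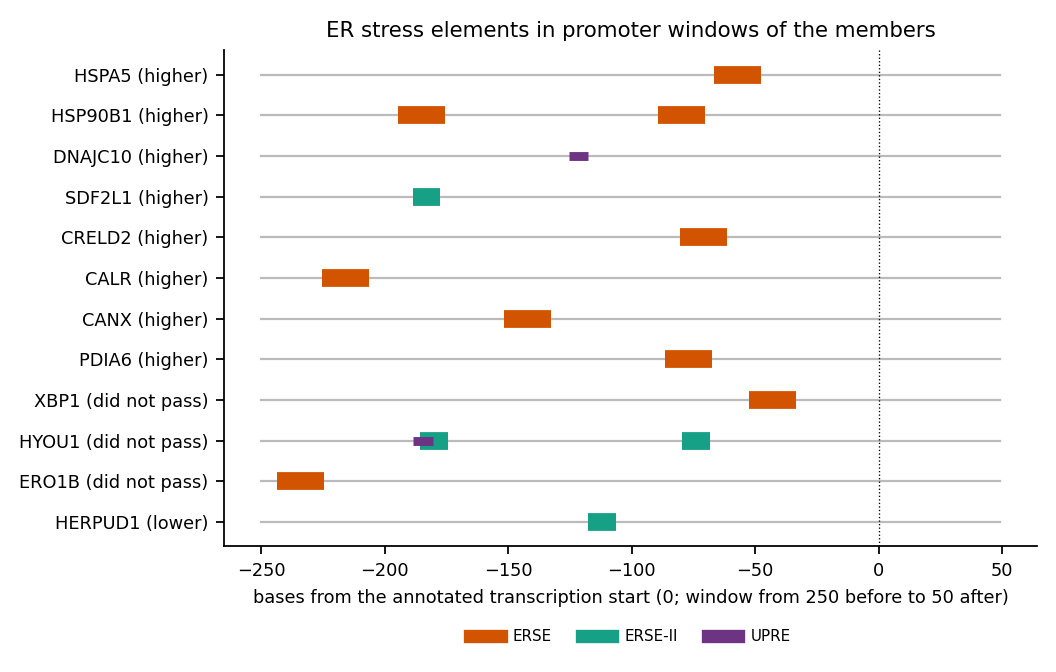
Position of each ERSE, ERSE-II and TGACGTGG match (UPRE) in the promoter windows of the 12 members that hold one, in bases from the annotated start, with the result of the expression test in brackets. Each match lies upstream of the start drawn, and CANX, with several annotated starts that share 1 element, is drawn for one of them.

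Sensors and transcription factors leaned lower, in a list too short to set its calls apart from the background (11.4% lower and 13.2% higher). Of the 5 genes, 2 were lower and 0 were higher by edgeR (0 higher also at an unadjusted p under 0.05 and by DESeq2), and all 5 log2 fold changes were negative. The third sensor, PERK, is encoded by EIF2AK3, which is not a member. EIF2AK3 did not lean lower (log2 fold change 0.05, adjusted p = 0.734) and its groups overlapped. ERN1, which encodes the kinase and endoribonuclease IRE1, stood at 63.2, 68.3 and 63.5 CPM in si-NC and at 52.6, 51.4 and 44.7 CPM in si-SRSF11. Each knockdown library was below each control, with replicate 3 the lowest (log2 fold change -0.39, standard error 0.065, adjusted p = 0.000125). CREB3L2, a membrane-bound factor related to ATF6 that is cut in the Golgi, went from 66.7, 65.8 and 70.0 CPM to 58.4, 55.3 and 55.6 CPM. Its groups did not overlap either (log2 fold change -0.26, standard error 0.056, adjusted p = 0.00169). XBP1, whose mRNA is the substrate of IRE1, stood at 318, 306 and 312 CPM in si-NC and 289, 298 and 294 CPM in si-SRSF11, each knockdown library below each control, and did not pass (log2 fold change -0.09, 95% interval -0.18 to 0.01, adjusted p = 0.175). It passed only with scaling by library size (adjusted p = 0.0471). Gene counts do not separate spliced from unspliced XBP1, which was not analysed here. ATF6 had a log2 fold change of -0.14 (adjusted p = 0.106), which passed without si-SRSF11 replicate 1 (-0.20, adjusted p = 0.0219). Its paralogue ATF6B had -0.12 (adjusted p = 0.213) and overlaps other genes over 9.92% of its exon bases.

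Chaperones and cochaperones mostly rose, with 6 of 10 genes higher and 1 lower. HSP90B1 (GRP94), the HSP90 of the ER lumen, stood at 393, 382 and 395 CPM in si-NC and at 524, 550 and 538 CPM in si-SRSF11. The groups lay far apart relative to their spread (log2 fold change 0.46, standard error 0.045, adjusted p = 1.13e-07). HSPA5 (BiP), the ER HSP70 that binds unfolded chains and holds the sensors inactive, is the usual marker of the unfolded protein response. It stood at 1048, 1023 and 1047 CPM in si-NC and at 1126, 1139 and 1158 CPM in si-SRSF11, a rise of 1.10-fold with no overlap (log2 fold change 0.13, standard error 0.041, adjusted p = 0.0184). The call on HSPA5 was lost with scaling by library size (adjusted p = 0.056) and without si-NC replicate 1 (0.0756), 2 (0.0986) or 3 (0.0678), while its log2 fold change stayed between 0.10 and 0.14. HYOU1, the GRP170 nucleotide exchange factor of BiP, had 421, 403 and 409 CPM in si-NC and 430, 427 and 422 CPM in si-SRSF11. The groups did not overlap, but the difference did not pass (log2 fold change 0.05, 95% interval -0.04 to 0.15, adjusted p = 0.416).

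CRELD2 and MANF, small secreted or luminal proteins that are induced by ER stress, also rose. CRELD2 stood at 52.5, 52.9 and 57.6 CPM in si-NC and at 74.1, 80.8 and 82.1 CPM in si-SRSF11, the largest rise among the members (log2 fold change 0.54, standard error 0.060, adjusted p = 7.25e-07). MANF went from 56.9, 54.3 and 51.0 CPM to 62.3, 73.1 and 70.3 CPM, with si-SRSF11 replicate 1 nearest to the control (log2 fold change 0.34, standard error 0.065, adjusted p = 0.000449). SDF2L1, a luminal partner of the ER J proteins, had 58.2, 54.7 and 64.1 CPM in si-NC and 63.9, 69.7 and 74.5 CPM in si-SRSF11. Its groups overlapped and the rise was modest (log2 fold change 0.23, standard error 0.067, adjusted p = 0.013). That call was lost without si-NC replicate 1 (adjusted p = 0.0571) or 2 (0.099), or without si-SRSF11 replicate 3 (0.0584).

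The ER J proteins, which are cochaperones that bring substrates to BiP, did not move together. DNAJB9 (ERdj4), a well-known target of spliced XBP1 that also restrains IRE1, stood at 21.5, 22.5 and 23.1 CPM in si-NC and at 14.3, 13.2 and 17.4 CPM in si-SRSF11, which left 67.0% of the control level. No other member fell as far (log2 fold change -0.58, standard error 0.10, adjusted p = 0.000234), and its counts of 214 to 360 per library were the fewest of the 18 called members. DNAJC10 (ERdj5), a reductase that serves ERAD, had 67.0, 73.0 and 65.6 CPM in si-NC and 79.2, 75.7 and 74.6 CPM in si-SRSF11 (log2 fold change 0.16, standard error 0.057, adjusted p = 0.0447). This was the weakest call. It was lost in 10 of 14 alternatives, among them DESeq2 (adjusted p = 0.0997) and the fits without si-NC replicate 1 (0.16) or 3 (0.191) or si-SRSF11 replicate 1 (0.134) or 2 (0.0796). DNAJB11 (ERdj3) had a log2 fold change of -0.03 (95% interval -0.15 to 0.09), which turned to 0.01 without si-SRSF11 replicate 1, and 23.2% of its exon bases lie in other genes. DNAJC3 (p58IPK) had -0.05 (95% interval -0.16 to 0.06). The ratio of DNAJB9 to HSPA5 counts within a library, which no scaling can change, was 0.0205, 0.022 and 0.0221 in si-NC and 0.0127, 0.0116 and 0.015 in si-SRSF11. In the same way, HSP90B1 over HSPA5 was 0.375, 0.373 and 0.377 in si-NC and 0.465, 0.483 and 0.464 after the knockdown. The knockdown values did not overlap the control values in either ratio. In all, 13 ratios were chosen after the values of the genes had been seen, so they are given as a description with no test. In 11 of them the groups did not overlap, and the exceptions were ATF6 over ATF6B and DERL1 over DERL2. Several ratios share a gene, such as DNAJB9 or EDEM1, so they are not separate observations. No such share was computed over other pairs. For single genes, groups did not overlap in 20.0% (higher) and 18.9% (lower) of all tested genes.

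Both lectin chaperones, which hold glycoproteins in the calnexin cycle until they are folded, were higher. CALR (calreticulin), the soluble one, stood at 1063, 1025 and 1063 CPM in si-NC and at 1325, 1438 and 1461 CPM in si-SRSF11. It had 15416 to 23818 counts per library and its groups were well separated (log2 fold change 0.42, standard error 0.045, adjusted p = 4.03e-07). CANX (calnexin), its membrane-bound relative, went from 746, 736 and 730 CPM to 857, 874 and 819 CPM (log2 fold change 0.21, standard error 0.043, adjusted p = 0.00121). The ratio of CALR to CANX counts was 1.43, 1.39 and 1.46 in si-NC and 1.54, 1.64 and 1.78 in si-SRSF11, again without overlap. CALR shares 9.95% of its exon bases with the overlapping gene AC092069.1, and whether reads were assigned by strand is not given in the sources used here.

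Oxidative folding enzymes showed the most even rise after the lectin chaperones, with 5 of 6 genes higher and 0 lower by edgeR (0 lower also at an unadjusted p under 0.05 and by DESeq2). The higher share was 83.3%, against 13.2% of all tested genes. PDIA4 (ERp72), a protein disulphide isomerase, stood at 442, 426 and 446 CPM in si-NC and at 607, 640 and 641 CPM in si-SRSF11, a 1.44-fold rise and the smallest adjusted p of all members (log2 fold change 0.52, standard error 0.045, adjusted p = 2.25e-08). P4HB (PDI itself, which also serves as a subunit of collagen prolyl hydroxylase) went from 620, 590 and 633 CPM to 817, 808 and 771 CPM (log2 fold change 0.38, standard error 0.045, adjusted p = 1.91e-06). In both genes each knockdown library was above each control library.

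The isomerase PDIA3 (ERp57), which works with calnexin and calreticulin, had 509, 505 and 505 CPM in si-NC and 607, 596 and 635 CPM in si-SRSF11 (log2 fold change 0.27, standard error 0.044, adjusted p = 8.77e-05). PDIA6 (P5) had 327, 315 and 318 CPM in si-NC and 371, 372 and 391 CPM in si-SRSF11 (log2 fold change 0.24, standard error 0.046, adjusted p = 0.000487). Neither pair of groups overlapped, but both genes carry an uncertainty of counting. PDIA3 overlaps other genes over 18.9% of its exon bases, and the pseudogene PDIA3P1 contains 8.02% of the 100-nt stretches of its longest transcript, and PDIA6 shares 25.2% of its exon bases with ATP6V1C2. Smaller overlaps are also present in the called genes P4HB (9.98%), ERO1A (7.7%), HSP90B1 (7.6%), DNAJB9 (6.45%), CRELD2 (3.25%), CANX (2.41%) and DNAJC10 (1.55%). ERO1A, the oxidase that recharges the isomerases, rose from 67.4, 69.9 and 64.7 CPM to 82.5, 85.8 and 78.2 CPM (log2 fold change 0.29, standard error 0.056, adjusted p = 0.000591). Its paralogue ERO1B stood at 37.2, 37.3 and 37.8 CPM in si-NC and 33.1, 37.8 and 37.1 CPM in si-SRSF11, with overlap (log2 fold change -0.06, 95% interval -0.20 to 0.09, adjusted p = 0.602). The ratio of ERO1A to ERO1B counts was 1.81, 1.87 and 1.71 in si-NC and 2.50, 2.27 and 2.11 in the knockdown, without overlap.

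**Figure D3:**
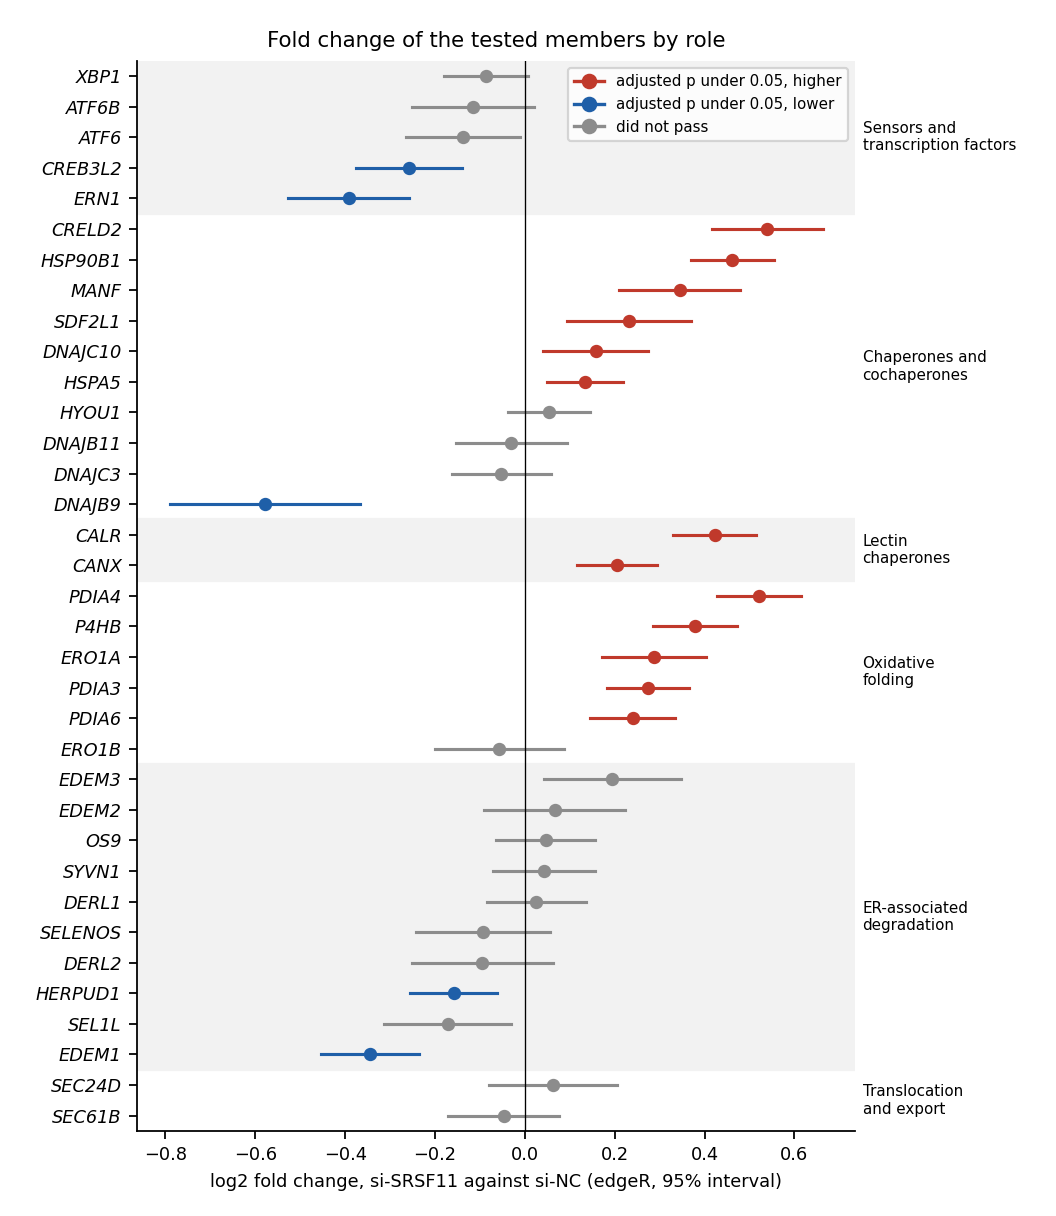
Log2 fold change of each tested member in si-SRSF11 against si-NC from edgeR, with its 95% interval, grouped by role; red and blue mark an adjusted p under 0.05. The 13 higher genes are all chaperones, cochaperones or folding enzymes, and the 5 lower genes are ERN1, CREB3L2, DNAJB9, HERPUD1 and EDEM1.

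ERAD components, which recognise misfolded proteins and move them to the cytosol for destruction, were not called higher with the folding genes. Of 10 tested genes, 2 were lower and 0 were higher by edgeR (1 higher at an unadjusted p under 0.05, which is EDEM3, and 0 by DESeq2). Over all tested genes, 11.4% were lower and 13.2% higher, and counts this small do not set the 10 genes apart from that background. EDEM1, a mannosidase-like lectin that marks glycoproteins for removal, stood at 90.2, 86.3 and 86.8 CPM in si-NC and at 70.5, 66.5 and 70.2 CPM in si-SRSF11. No library overlapped, and 78.7% of the control level was left (log2 fold change -0.35, standard error 0.053, adjusted p = 4.47e-05). EDEM1 shares 9.66% of its exon bases with the overlapping gene AC026202.3. HERPUD1, a membrane protein that organises the ERAD ligase complex, had 288, 281 and 290 CPM in si-NC and 263, 246 and 260 CPM in si-SRSF11 (log2 fold change -0.16, standard error 0.047, adjusted p = 0.0154). That call was lost without si-NC replicate 1 (adjusted p = 0.0653) or 3 (0.0657) or without si-SRSF11 replicate 2 (0.0871).

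The relatives of EDEM1 were not called lower. EDEM3 stood at 31.7, 29.1 and 30.2 CPM in si-NC and 33.6, 37.2 and 33.3 CPM in si-SRSF11, without overlap (log2 fold change 0.19, adjusted p = 0.0559), and it passed without si-SRSF11 replicate 3 (0.22, adjusted p = 0.0438). EDEM2 had a log2 fold change of 0.07 (95% interval -0.09 to 0.22). The ratio of EDEM1 to EDEM3 counts was 2.84, 2.97 and 2.87 in si-NC and 2.10, 1.79 and 2.11 in si-SRSF11, and that of EDEM1 to EDEM2 was 3.22, 3.29 and 3.30 against 2.50, 2.45 and 2.43. In both ratios the knockdown libraries were below the controls.

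Unlike HERPUD1, the HRD1 ligase genes SYVN1, SEL1L and OS9 were not called. SYVN1, the ligase HRD1, had a log2 fold change of 0.04 (95% interval -0.07 to 0.16), and the lectin OS9 had 0.05 (95% interval -0.06 to 0.16). SEL1L, the adaptor of HRD1, had 57.2, 56.3 and 62.0 CPM in si-NC and 56.5, 52.9 and 46.6 CPM in si-SRSF11, with overlap (log2 fold change -0.17, 95% interval -0.31 to -0.03, adjusted p = 0.0697). SEL1L passed with scaling by library size (adjusted p = 0.0346), with no filter beyond 1 count (0.0477), with protein-coding genes only (0.0482) and without si-SRSF11 replicate 1 (0.0135). Of the derlins, which form part of the exit channel, DERL1 had a log2 fold change of 0.03 (95% interval -0.08 to 0.14) and DERL2 had -0.09 (95% interval -0.25 to 0.06). SELENOS, a selenoprotein that ties derlins to the ATPase p97, had -0.09 (95% interval -0.24 to 0.06), and passed without si-SRSF11 replicate 3 (-0.19, adjusted p = 0.0409). DERL3, known from plasma cells and other secretory tissues, was not tested, since it had 0, 3 and 0 counts in si-NC and 1, 2 and 2 counts in si-SRSF11, and 77.0% of its exon bases lie in SMARCB1.

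Translocation and export were represented by SEC61B, a subunit of the channel through which new chains enter the ER, and SEC24D, a cargo adaptor of the COPII coat. SEC61B stood at 67.4, 62.8 and 67.9 CPM in si-NC and 59.7, 64.6 and 67.4 CPM in si-SRSF11, and SEC24D at 39.5, 37.6 and 38.0 CPM and at 43.0, 39.7 and 37.5 CPM. The groups of both genes overlapped. Their log2 fold changes were -0.05 (95% interval -0.17 to 0.08) and 0.06 (95% interval -0.08 to 0.20), and 0 of these 2 genes passed by edgeR, by DESeq2 or at an unadjusted p under 0.05. Over the 17 tested members that did not pass, the 95% intervals of the log2 fold change lay between -0.31 and 0.35.

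Levels per kilobase of annotated exon differed widely among the members. CALR was first with 387 CPM per kilobase in si-NC, followed by HSPA5 with 266, PDIA4 with 134, PDIA3 with 120, CANX with 118 and P4HB with 116. PDIA3, CANX and P4HB were close to each other in si-NC, and P4HB passed the other two in si-SRSF11. XBP1 with 103, HSP90B1 with 83.1 and PDIA6 with 78.0 came next, and of these 9 genes 8 were called higher and 0 lower, against 5 higher and 5 lower among the other 26 tested members. The cut at 9 was set after the values were seen, and with HERPUD1, which was lower, among the first 12, the counts were 9 higher and 1 lower there and 4 higher and 4 lower among the other 23. CRELD2 and DNAJC10 were higher at low levels. Across the 35 genes, level per kilobase and log2 fold change had a Pearson's r of 0.477 and a Spearman's rho of 0.462, given as a description over genes of the same 6 libraries, in which more reads also give a smaller error. The sensors ERN1 (5.98 CPM per kilobase) and ATF6 (8.09) and the cochaperone DNAJB9 (7.88) were at the low end. DNAJC10 was lowest of the tested genes with 3.14, over an annotated exon length of 21835 nt that may not all be transcribed in these cells.

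**Figure D4:**
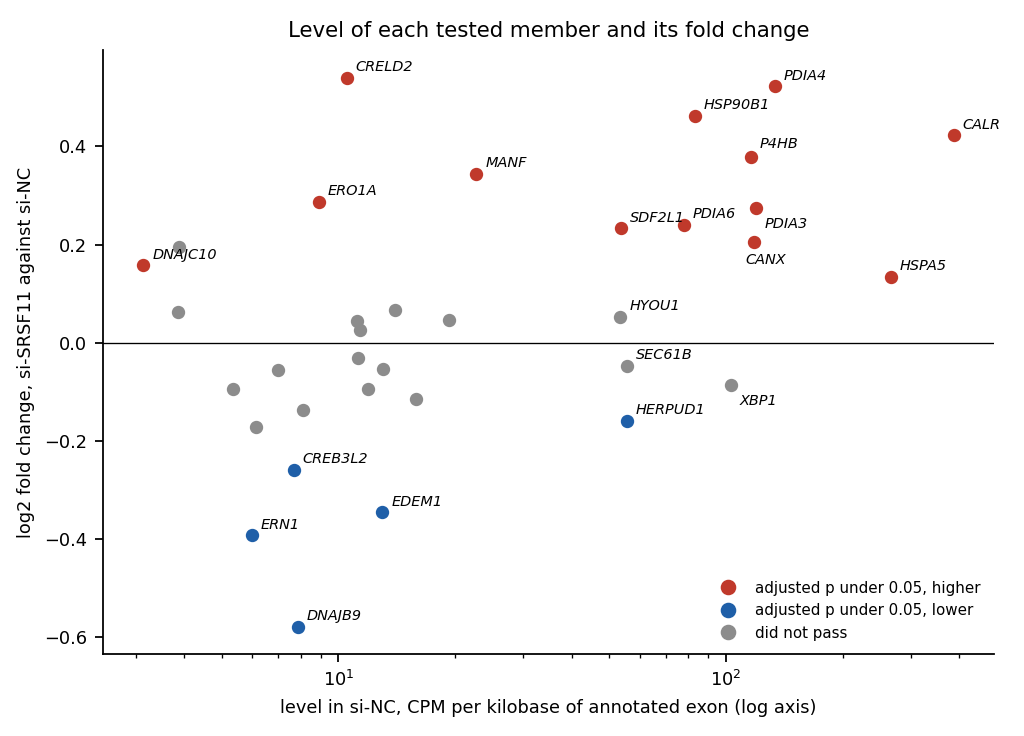
Level of each tested member in si-NC, in CPM per kilobase of annotated exon on a log axis, against its log2 fold change in si-SRSF11; colour gives the result of the test. Of the 9 most abundant members 8 are called higher, the exception being XBP1, while ERN1, CREB3L2, DNAJB9 and EDEM1 are called lower at levels below 15 CPM per kilobase.

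As a share of all counts, the 36 genes together took 0.764%, 0.749% and 0.756% in the control libraries and 0.857%, 0.866% and 0.857% in the knockdown libraries. Their summed level was 16.4% higher, from a si-NC mean of 7489 CPM (SD 110, n = 3) to a si-SRSF11 mean of 8720 CPM (SD 108, n = 3). By role, the difference of the sums was 27.9% for oxidative folding enzymes, 26.3% for lectin chaperones, 13.9% for chaperones and cochaperones, -9.66% for sensors and transcription factors and -5.89% for ERAD. Of the net difference of 1232 CPM, CALR gave 358, PDIA4 191, P4HB 185 and HSP90B1 147 CPM, which together are 71.5%. These sums are a description and were not tested.

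Other genes of ER proteostasis and the early secretory pathway were read from lists of 157 genes written with earlier results of these data known. Of 156 tested, 35 were higher (22.4%, against 13.2% of all tested genes) and 19 were lower (12.2%, against 11.4%), with a median log2 fold change of 0.04. Without si-NC replicate 2, the higher count was 22. The named genes are the 3 of each list with the smallest adjusted p, with MOGS, NFYB, NFYC, EIF2AK3, CHAC1 and EIF2S1 added as related genes.

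Both subunits of glucosidase II, which trims glucose from glycoproteins and so feeds the calnexin cycle, rose. GANAB, the catalytic subunit of glucosidase II, stood at 597, 577 and 577 CPM in si-NC and at 909, 891 and 863 CPM in si-SRSF11 (log2 fold change 0.60, standard error 0.043, adjusted p = 1.41e-09). PRKCSH, its other subunit, went from 304, 280 and 300 CPM to 399, 422 and 426 CPM (log2 fold change 0.50, standard error 0.048, adjusted p = 1.17e-07). In the list of N-glycosylation and glucose trimming, 6 of 22 tested genes were higher (27.3%, against 13.2% of all tested genes) and 3 lower (13.6%, against 11.4%). MOGS, the glucosidase that acts before glucosidase II, did not pass (log2 fold change -0.10, adjusted p = 0.131) with each knockdown library below each control. MAGT1, a subunit of oligosaccharyltransferase, was among the lower genes (log2 fold change -0.25). Among other folding enzymes and cochaperones, 4 of 30 were higher and 1 was lower, close to the background. PRDX4, a luminal peroxidase that works beside ERO1A, rose by a log2 fold change of 0.50 and the prolyl isomerase PPIB by 0.26, while the J protein DNAJC1 had -0.29.

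The lists for entry into and exit from the ER are read against the same background of 13.2% higher and 11.4% lower. In the list of the translocon and signal peptidase, 6 of 23 genes were higher (26.1%, and 4 genes by DESeq2) and 0 lower by edgeR (1 lower at an unadjusted p under 0.05, 0 by DESeq2). Its log2 fold changes were positive in 12 genes and negative in 11, and the called genes were led by SRP14 with a log2 fold change of 0.26, SEC61G with 0.25 and SPCS3 with 0.21. In the list of COPII export and KDEL receptors, 9 of 22 were higher (40.9%) and 3 lower (13.6%), with SEC23A at 0.26, TMED2 at 0.23 and the SNARE BET1 at -0.51. Other ERAD genes were balanced, with 4 of 33 higher and 4 lower, as VCP, the ATPase p97, rose by 0.28 while TMUB1 and TMUB2 had -0.34 and -0.38. The PERK arm is shared with the integrated stress response, and 2 of its 10 genes were higher and 4 lower. Its log2 fold changes were positive in 6 genes and negative in 4, with a median of 0.04. The higher genes were CHAC1 (log2 fold change 0.22) and EIF2S1 (0.14). DDIT3 (CHOP) stood at 138, 136 and 140 CPM in si-NC and 97.5, 96.0 and 102 CPM in si-SRSF11 (log2 fold change -0.49, adjusted p = 1.24e-07), PPP1R15A (GADD34) had a log2 fold change of -0.44 and ASNS had -0.56. Among other regulators, 4 of 16 were higher and 4 lower, with CREB3L3 at 0.71, NFYA, a subunit of the CCAAT-binding NF-Y, at 0.33, and the proapoptotic BBC3 (PUMA) at -0.43. The NF-Y subunits did not move together. NFYC was lower (log2 fold change -0.25, adjusted p = 0.00301) and NFYB did not pass (-0.18, adjusted p = 0.187).

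**Figure D5:**
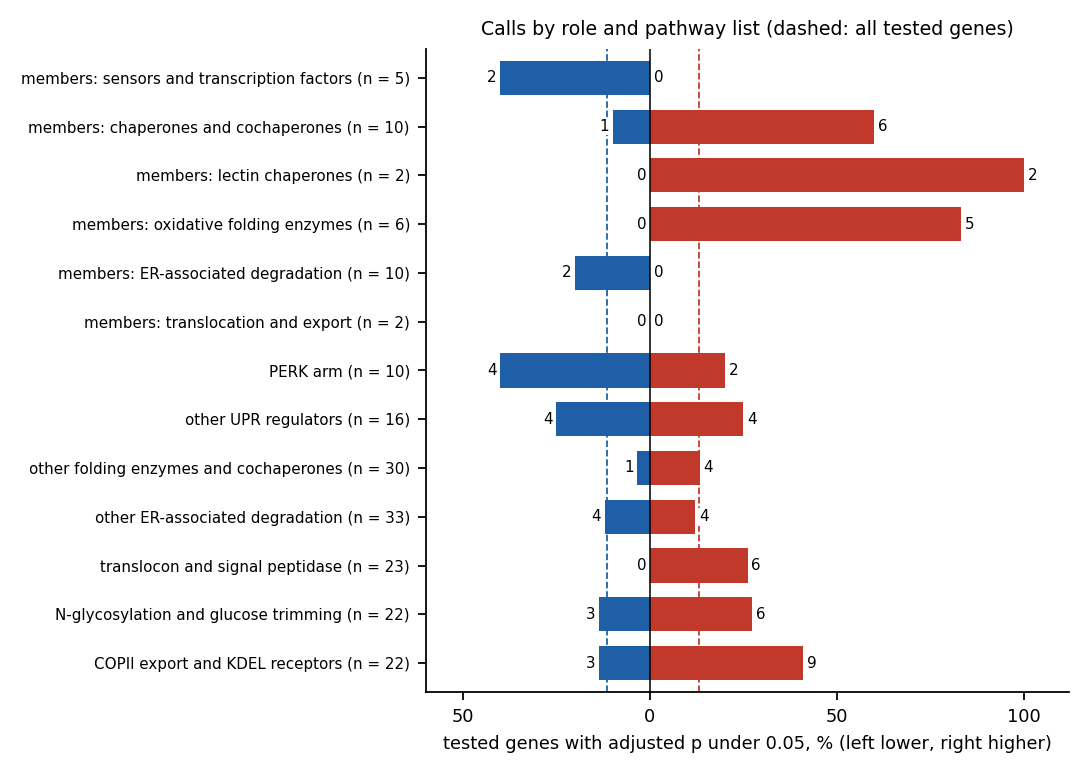
Share of the tested genes of each role and pathway list with an adjusted p under 0.05 in edgeR, lower to the left and higher to the right, with the number of genes at each bar; dashed lines are the shares over all tested genes (11.4% lower, 13.2% higher). Lectin chaperones, oxidative folding enzymes and chaperones reach furthest to the right, and the sensors and the PERK arm furthest to the left.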

How the data were processed

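RNA was sequenced by the authors in 3 si-NC and 3 si-SRSF11 libraries of LoVo cells with a NEBNext Ultra RNA kit, per the labels. The deposited table holds raw counts per gene on hg38, with gene lengths that match GENCODE 29 for all 36 members, and 26909 of its 58735 genes are at 0 in all libraries. The aligner and counter are not given in the sources used here. A gene was kept if 3 or more libraries had 10 or more counts. After TMM scaling, the quasi-likelihood test of edgeR 4.0.16 in R 4.3.3 (glmQLFit, then glmQLFTest) compared the groups over 15801 genes, with Benjamini-Hochberg adjustment. Standard errors and 95% intervals come from the quasi-likelihood F statistic. Per-kilobase levels use the deposited gene length. The same code was checked on data of known fold changes. Alternatives were DESeq2 (version 1.42.0), other scalings and filters, protein-coding genes, a replicate block and leaving out each library. Exon overlap and shared 100-nt windows were computed on GENCODE 29, and promoters were taken from RefSeq.

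Named genes are all members, SRSF11, cell type markers and up to 3 of each other list. A few related genes were added after their values were seen. The members and lists were chosen with earlier results of these data known. Intervals cover these libraries only, and molecules were not tagged, so counts may hold PCR copies.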

Additional observations from a re-analysis of the deposited data

How the results depend on the processing

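Of the 18 called members, 14 kept their direction and an adjusted p under 0.05 in each of 14 alternatives, and the exceptions were HSPA5, DNAJC10, SDF2L1 and HERPUD1. Of the 17 that did not pass, 5 passed somewhere (ATF6, XBP1, SEL1L, EDEM3 and SELENOS). The median log2 fold change of the members, 0.0461, was 0.0114 with scaling by library size and 0.0202 to 0.0702 with 1 library left out. With a fold threshold of 1 on the log2 scale, 0 members were higher and 0 lower, since the log2 fold changes of the members lay between -0.578 and 0.54. Leaving out 1 library gave 10 to 13 higher members and 4 to 7 lower ones, 22 to 30 higher and 15 to 22 lower genes of the other lists, and -0.824 to -0.79 for SRSF11. Signs that turned belonged to values near 0 that did not pass. DNAJB11 was 0.0143 without si-SRSF11 replicate 1 and ranged from -0.0813 to 0.0143 with 1 library left out. DERL1 was -0.0087 with scaling by library size, -0.00578 without si-NC replicate 1 and -0.00368 without si-SRSF11 replicate 1, and ranged from -0.00578 to 0.0502. The cause was not tested. With the replicate number as a block, 13 members were higher and 5 lower, the median was 0.0459 and SRSF11 was -0.805, so it changed no call among the members and SRSF11, and the other lists had 35 higher and 20 lower genes (19 lower without it). Same-numbered libraries of the groups had deviations correlated at 0.0151, 0.0362 and 0.0403, each the highest for its number but under 0.1, so the numbers were not taken as pairs. Depth limits the precision: the standard errors of the tested members were 0.0407 to 0.102 on the log2 scale, largest for DNAJB9, with 214 to 360 counts a library.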

Other observations

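ERN2 and CREB3L1, tissue-restricted relatives of ERN1 and CREB3L2, stood higher in si-SRSF11, at low levels. ERN2, which encodes the IRE1 form of gut epithelium, had 4, 5 and 4 counts in si-NC and 13, 18 and 19 counts in si-SRSF11 (log2 fold change 1.82, standard error 0.45, adjusted p = 0.00479 from edgeR). CREB3L1, a relative of CREB3L2, had 4, 12 and 14 counts in si-NC and 42, 20 and 40 counts in si-SRSF11 (log2 fold change 1.67, standard error 0.39, adjusted p = 0.00299). In both genes each knockdown library was above each control library, opposite to the direction of ERN1 and CREB3L2. These are the 2 genes of the other lists past an absolute log2 fold change of 1, and they were singled out after their values were seen. With so few counts their sizes are uncertain. Other relatives of CREB3L2 differed. CREB3L3 was higher (log2 fold change 0.71), CREB3 was lower (-0.25, adjusted p = 0.00447) and CREB3L4 did not pass (0.03, adjusted p = 0.874). ATF4, the transcription factor downstream of PERK that is controlled mainly in translation, had 634, 627 and 659 CPM in si-NC and 678, 671 and 699 CPM in si-SRSF11 (log2 fold change 0.09, adjusted p = 0.128), and was also named after its values were seen.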
